A study of Mus musculus with 34 samples.

Results

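The 9 genes described here encode ETS transcription factors, grouped under the heading of factors downstream of ERK: Etv4, Etv5, Etv1, Etv6, Ets1, Ets2, Elk3, Elf3 and Ehf. A place downstream of ERK was not tested for any of them. They were taken as the rows of the count table whose Ensembl identifiers carry these symbols in the GENCODE M21 annotation of the mouse genome build GRCm38, and all 9 were found among the 14107 genes of the table. Their levels were measured by bulk RNA sequencing in 3 lines of metastatic colorectal cancer cells, NaJa-D, NaJa-F and NaJa-G. Each line was treated with 0.5 µM encorafenib, an inhibitor of mutant BRAF, or with the solvent DMSO, and harvested on day 1 or on day 5, with fresh drug and medium during the longer course. The question addressed was how encorafenib changes the RNA levels of the ETS factors and whether the lines differ in it. The paper reports that ERK phosphorylation was not affected after the longer encorafenib course. For the shorter course it reports insufficient inhibition of ERK phosphorylation by encorafenib alone in NaJa-D. For the RNA of ERK targets the paper reports that most fell at first in all lines, and most strongly in NaJa-G. By day 5, it reports, this effect had waned, particularly in NaJa-D and NaJa-F. A drug-treated group is therefore not taken here as one with blocked ERK.

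ETS factors share a DNA-binding domain that recognises a purine-rich core sequence, and several of them are switched on by ERK. Etv4, Etv5 and Etv1 form the PEA3 group, whose genes are known ERK outputs in epithelial cells: the repressor Cic holds them silent until ERK signalling relieves it, and the ubiquitin ligase built on Cop1 and Det1 removes their proteins. Ets1, Ets2 and the ternary complex factor Elk3 carry sites that MAP kinases phosphorylate, Etv6 is a repressor of the family, and Elf3 and Ehf are epithelium-specific members known for their part in epithelial differentiation, also in the gut.

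All groups shared the genotype VillinCreERT2::BrafV600E/+::Trp53R172H::APCdel on the C57BL/6N background. The Villin promoter restricts the inducible Cre to the gut epithelium, and the DMSO-treated cells carried the same alleles as the drug-treated cells. Per the study's methods, each line came from the peritoneal lavage of a different recipient mouse after transplantation of organoids. The paper traces the 3 lines to the same organoid culture of 1 male donor. A line therefore stands for 1 recipient, and the lines are not independent animals. The 34 libraries fell into 12 groups of line, treatment and day, 10 groups with 3 libraries and 2 groups with 2, namely day 5 of NaJa-G in DMSO and of NaJa-F with encorafenib. No label says whether libraries of a group were separate cultures, so p-values measure only the spread between these libraries, which may be technical.

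Total counts per library ran from 46007050 to 80121299. Within groups, the variance between 2 libraries was 3.3 to 85 times what counting alone gives, so none was a second copy of another. Among the highest values, the 2 libraries of NaJa-G DMSO day 5 gave 68. NaJa-D encorafenib day 1 replicate 3 gave 85 and 66.6 against its mates, which gave 11 between them. That replicate held the highest Ets2 and Elf3 of its group and was kept. One library stood against its labels: NaJa-D DMSO day 1 replicate 3 by its title has NaJa-G in the cell line field. Over all genes, r between its log2 CPM (counts per 1000000 counts of a library, scaled by TMM) and those of its 2 title mates was 0.995, and at most 0.92 for the same treatment and day in NaJa-G. It was kept under its title, and the tests it enters are also given without it below. All 12 epithelial markers on the list used, among them Epcam, Cdh1 and Krt8, were in the table. Of the leukocyte markers, Ptprc and Cd3e were not among its rows, nor were Pecam1, Cdh5 and Tek of the endothelial list, and the 3 leukocyte markers present summed to 23.0 to 47.6 CPM in all. The markers of fibroblasts, mesothelium and mesenchyme, and Csf1r of the leukocyte list, moved with the drug, as given beside the member counts. The paper reports that host cells were lost as the lines were passaged, since the PCR product of wild-type Apc disappeared. It also counts decorin among the transcripts that encorafenib raised in all 3 lines. In bulk RNA, fewer cells of a kind and less RNA per cell cannot be told apart.

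Promoter sequences, 250 bases before to 50 after a start, were held by the RefSeq table (build GRCm38.p6) for 6 of the 9 members, and not for Etv4, Ets1 and Ehf. Etv5 and Etv1 are shown because they were lower with encorafenib, and Elf3 because it moved the other way. Capitals mark 2 kinds of match. The first is the octamer bound by Cic, spelled TGAATGAA, TGAATGAG, TGAATGGA, TGAATGGG, TCAATGAA, TCAATGAG, TCAATGGA or TCAATGGG, and the second is an ETS heptamer, AGGAAGT or CGGAAGT, each on either strand. These spellings do not overlap one another, and they were chosen after the sequences had been seen.
Etv5, second start, chr16:22438319-22438618, minus strand: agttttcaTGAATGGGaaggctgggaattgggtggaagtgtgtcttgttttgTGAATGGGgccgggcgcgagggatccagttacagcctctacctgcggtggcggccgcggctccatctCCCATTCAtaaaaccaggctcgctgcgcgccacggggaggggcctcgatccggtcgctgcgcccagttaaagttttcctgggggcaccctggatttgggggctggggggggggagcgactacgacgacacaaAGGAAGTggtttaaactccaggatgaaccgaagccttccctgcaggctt
Etv1, first start, chr12:38779832-38780131, plus strand: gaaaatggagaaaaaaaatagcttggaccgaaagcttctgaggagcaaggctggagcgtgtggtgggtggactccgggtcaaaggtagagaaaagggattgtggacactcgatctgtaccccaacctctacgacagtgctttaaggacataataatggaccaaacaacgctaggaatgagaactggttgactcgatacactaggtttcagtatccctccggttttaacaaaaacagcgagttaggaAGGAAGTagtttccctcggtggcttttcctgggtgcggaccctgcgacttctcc
Elf3, chr1:135258423-135258722, minus strand: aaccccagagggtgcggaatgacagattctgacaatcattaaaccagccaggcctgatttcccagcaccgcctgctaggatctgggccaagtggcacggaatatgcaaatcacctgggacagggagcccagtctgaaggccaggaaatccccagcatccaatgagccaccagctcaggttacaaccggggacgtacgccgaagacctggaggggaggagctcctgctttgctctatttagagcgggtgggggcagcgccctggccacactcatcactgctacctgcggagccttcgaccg

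The Etv5 window at the second start lay wholly in an intron of the GENCODE gene model and held 3 Cic octamers, all spelled TGAATGGG, at bases 9 to 16, 53 to 60 and, on the opposite strand, 120 to 127 of the printed sequence. Over all 32851 RefSeq windows of this length, 7.02% held at least 1 Cic octamer and 0.0791% held 3 or more. The window at the other Etv5 start held none, nor did those of Etv1, Ets2, Elk3 and Elf3, whereas that of Etv6 held 1, TCAATGAG. An ETS heptamer stood once each in the Etv5 and Etv1 windows printed here, over or just after the start, and in 15.1% of all windows. The spellings TGAATGAA and TGAATGGA were also searched as a set of their own. They stood in 2.47% of all windows and in no window of a member. A match is a description of letters, and no binding was measured.

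Etv4, a PEA3 factor, was lower with encorafenib in every line and on both days. NaJa-D DMSO libraries of day 1 held 79.5, 82.1 and 73.8 CPM and the encorafenib libraries 33.0, 37.9 and 31.5. On day 5 the NaJa-D values were 90.7, 94.8 and 96.0 CPM in DMSO and 37.1, 41.9 and 44.0 with encorafenib. The drug groups lay wholly below their controls. In NaJa-F the day 1 levels were 82.7, 84.2 and 89.9 CPM in DMSO against 40.3, 42.2 and 45.5, and the day 5 levels 87.5, 89.3 and 88.1 against 52.4 and 59.5. NaJa-G began from about the same DMSO level, 94.8, 95.8 and 99.9 CPM on day 1, and dropped to 7.95, 7.52 and 7.89. By day 5 its encorafenib libraries held 26.5, 26.2 and 24.6 CPM against 93.7 and 103 in DMSO, so they stood above the day 1 drug level but far under the control. The log2 fold change, encorafenib against DMSO, was -1.20 ± 0.07 (SE) on day 1 and -1.20 ± 0.07 on day 5 in NaJa-D. It was -1.0 ± 0.06 and -0.66 ± 0.07 for NaJa-F and -3.64 ± 0.09 and -1.93 ± 0.07 for NaJa-G. The largest of these is a 12.5-fold lower level, and the adjusted p of limma, corrected over all 14107 genes, was between 1.23e-23 and 2.91e-08.

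Etv5, which is paired with Etv4 in branching epithelia, was lower in all 6 comparisons too, and its DMSO level set the lines apart. In NaJa-D it held 29.1, 28.7 and 26.4 CPM in DMSO on day 1 and 6.26, 7.69 and 8.50 with encorafenib, and on day 5 25.5, 25.1 and 26.3 against 8.11, 8.73 and 7.97. In NaJa-F the values were 34.2, 33.6 and 30.3 CPM against 11.8, 12.3 and 12.6 on day 1, and 40.1, 41.7 and 38.3 against 13.6 and 13.3 on day 5. In NaJa-G they were 82.0, 70.4 and 68.3 CPM against 11, 10.6 and 11.1 on day 1, and 82.7 and 92.5 against 20.7, 18.0 and 18.7 on day 5. Although NaJa-G started highest, its drug-treated day 1 libraries lay below those of NaJa-F. Fold changes on the log2 scale were -1.93 ± 0.10 and -1.63 ± 0.09 for NaJa-D, -1.42 ± 0.08 and -1.57 ± 0.09 for NaJa-F, then -2.75 ± 0.08 and -2.20 ± 0.08 for NaJa-G (limma, adjusted p from 1.26e-21 to 1.06e-13). Leaving out any 1 library of the groups compared kept every call for Etv4 and Etv5 under encorafenib. Without the NaJa-D library whose labels disagree, the day 1 values of that line were -1.28 for Etv4 and -2.0 for Etv5.

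Etv1, the third PEA3 factor, was scarce. Its counts were 11, 12 and 4 reads in the NaJa-D DMSO libraries of day 1 and 4, 1 and 4 with encorafenib, and on day 5 15, 10 and 19 against 3, 1 and 3. NaJa-F held 18, 23 and 12 reads against 1, 3 and 9 on day 1 and 57, 58 and 51 against 12 and 9 on day 5. NaJa-G held most, 106, 83 and 113 reads against 10, 10 and 6 on day 1 and 207 and 224 against 21, 11 and 37 on day 5. No drug library exceeded its controls, though in NaJa-D on day 1 the highest drug library and the lowest control, the one with conflicting labels, each held 4 reads. The log2 fold change ran from -1.92 ± 0.64 in NaJa-D on day 1 to -3.38 ± 0.32 in NaJa-G on day 5. Of these, 5 passed the test, and NaJa-D on day 1 did not (limma, adjusted p = 0.012). Without the library with conflicting labels it did, at -2.36 (adjusted p = 0.00338), and with all libraries it did in edgeR and DESeq2 (adjusted p = 0.00689 and 0.00313). As summed reads the drug-to-control ratio was 0.246 in NaJa-D (9 against 27 reads, exact 95% interval for counting error only 0.102 to 0.540) and 0.097 in NaJa-G on day 1 (26 against 302 reads, 0.0623 to 0.145). The NaJa-D day 5 call was lost without encorafenib replicate 2 (-2.10, adjusted p = 0.0135). Likewise the NaJa-F day 1 call was lost without encorafenib replicate 1 (-1.65, adjusted p = 0.0294), encorafenib replicate 2 (-2.21, 0.0127) or DMSO replicate 2 (-2.06, 0.0106), and the NaJa-F day 5 call without encorafenib replicate 2 (-2.10, 0.0165).

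**Figure D1:**
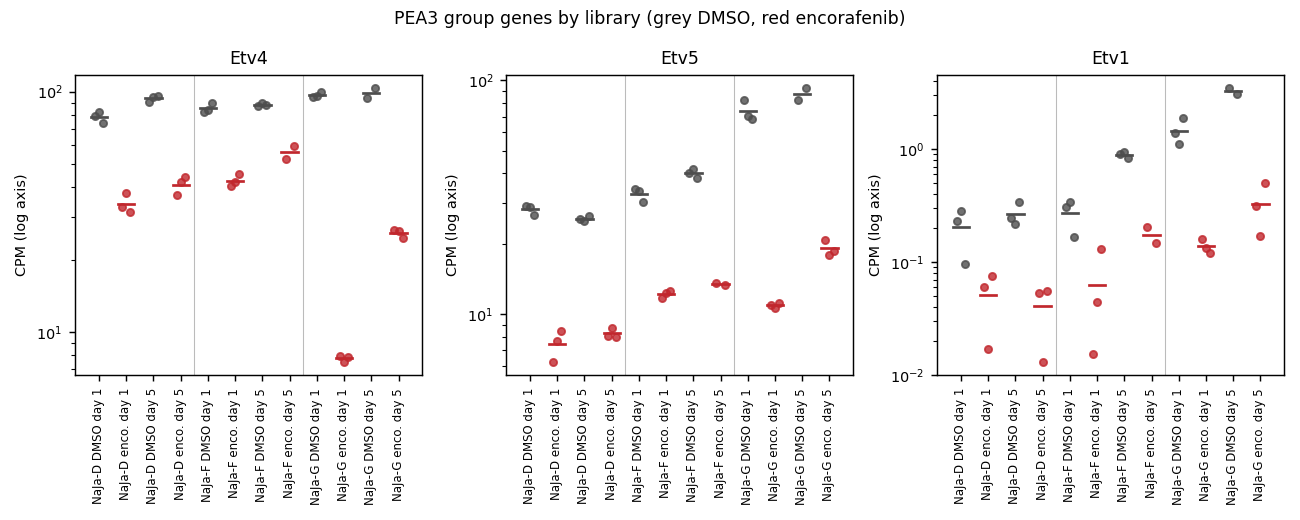
CPM of Etv4, Etv5 and Etv1 in each library on log axes, by line, treatment and day; points are libraries and short lines group means. In NaJa-G, Etv4 drops from a mean of 96.8 CPM in DMSO to 7.79 CPM with encorafenib on day 1 and stands at 25.8 CPM on day 5, while Etv1 stays under 4 CPM in every library.

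Among the 14107 genes ordered by log2 fold change from the lowest, Etv5 ranked between 83 and 164 in the 6 comparisons, Etv1 between 41 and 85 and Etv4 between 42 and 633. Of the 9 members, Etv4 and Etv5 passed in the downward direction in all 6 comparisons, as did 3.07% of all genes. Etv1 joined them in 5 of 6, which 6.58% of all genes reached in 5 or more. No member was called higher in all 6, against 5.08% of all genes. On day 1 Ets2 and Elf3 were higher in all 3 lines (12.2% of all genes) and Etv4 and Etv5 lower (7.9%), and on day 5 Etv4, Etv5, Etv1 and Elk3 were lower in all 3 (4.28%) and none was higher (6.67%).

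Counted over the members, 4 of 9 passed in NaJa-D on day 1 (44.9% of all genes did), 2 of them higher (23.7%) and 2 lower (21.2%), and 5 on day 5 (33%), 1 higher (18.3%) and 4 lower (14.7%). In NaJa-F 7 passed on day 1 (29.5%), 4 higher (17.5%) and 3 lower (12%), and 6 on day 5 (18.2%), 2 higher (9.7%) and 4 lower (8.5%). In NaJa-G 7 passed on day 1 (64%), 4 higher (35.3%) and 3 lower (28.7%), and 6 on day 5 (53.2%), 2 higher (28.5%) and 4 lower (24.7%). In NaJa-D on day 1 the share of members called was about that of all genes, and in NaJa-G on either day it was not far above it. The median log2 fold change of the members lay between -0.16 and 0.13 and that of all genes between -0.02 and 0.04. The libraries of drug and control did not overlap for 6 members in NaJa-D on day 1 and 6 on day 5 (54.9% and 54.5% of all genes), for 7 and 7 in NaJa-F (59.1% and 55.3%) and for 8 and 8 in NaJa-G (73.5% and 73.1%). Without the library with conflicting labels 5 members passed in NaJa-D on day 1, Etv1 being added, and the uncalled Etv6, Ets1 and Elk3 stood at 0.01, -0.10 and -0.12. The NaJa-F day 5 count fell to 3 without encorafenib replicate 2, the group then being 1 library that is assumed to vary like the other groups.

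Genes listed as markers of other cell types moved with the drug as well. Of the leukocyte markers, Csf1r was higher in all 3 lines on day 1 (12.2% of all genes) and on day 5 (6.67%). Its log2 fold changes ran from 1.92 to 3.01. Cd14 was lower in NaJa-D on day 1 and in NaJa-G on day 5 (-0.34 and -0.48), and Cd68 higher in NaJa-G on day 5 (0.64). The 5 of 6 fibroblast markers in the table summed to 1.38 to 1.71 CPM in NaJa-D DMSO on day 1 and 2.84 to 3.42 with encorafenib, and on day 5 to 1.75 to 1.91 and 7.23 to 7.82. The sums for NaJa-F were 2.09 to 2.73 and 4.36 to 5.11 CPM, then 2.78 to 2.91 and 6.12 to 6.27. For NaJa-G they were 54.7 to 75 and 90.5 to 106 CPM on day 1 and 15 to 17.8 and 115 to 131 on day 5. Col1a1, a collagen chain, and Dcn, a matrix proteoglycan, were higher in all 3 lines on both days (12.2% of all genes on day 1, 6.67% on day 5).

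So were Msln and Upk3b, surface proteins of mesothelium, of which Upk3b had its largest value in NaJa-G on day 5 (5.12 ± 0.33 on the log2 scale, a 34.8-fold higher level). The 3 of 4 mesothelial markers in the table summed to 1225 to 1514 CPM in NaJa-D DMSO and 2214 to 3520 with encorafenib, to 660 to 985 and 1002 to 1176 in NaJa-F, and to 497 to 724 and 1328 to 1744 in NaJa-G. The 9 mesenchymal markers summed in NaJa-G to 6835 to 7952 CPM in DMSO and 8065 to 8245 with encorafenib on day 1, and to 7713 to 7961 and 14754 to 15631 on day 5. In NaJa-D their day 1 sum was 13761 to 15114 CPM in DMSO and 9155 to 11350 with encorafenib, and on day 5 8759 to 11169 and 9061 to 10211. NaJa-F held 9665 to 10744 and 8935 to 9584 CPM, then 7633 to 7814 and 10394 to 10812. Such a sum follows its most abundant genes, and in DMSO it was higher in NaJa-D than in NaJa-G on both days. For vimentin, ZEB1 and N-cadherin protein the paper reports the reverse order. From its RNA sequencing in DMSO it also reports that transcripts of epithelial-mesenchymal transition were most induced in NaJa-G. The sum is not read here as an order of the lines. Sparc, a matrix protein, was the mesenchymal marker called higher in all 3 lines on day 1, and on day 5 none was called one way in all 3. The part of these markers in the values of the members was not tested.

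**Figure D2:**
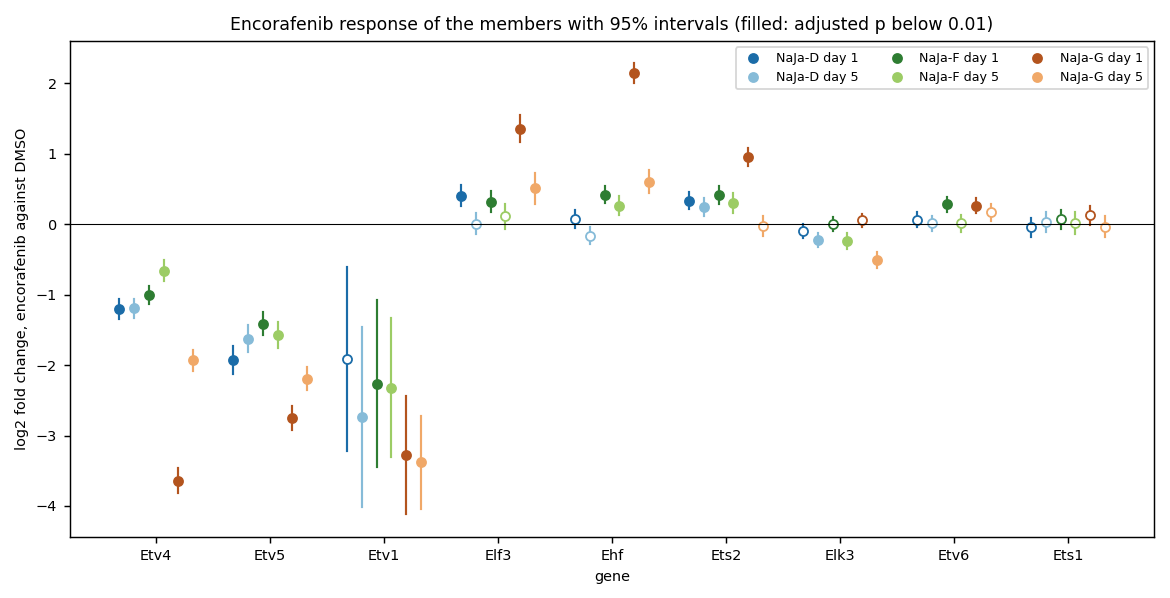
Log2 fold change, encorafenib against DMSO, of each member in each line and on each day, with 95% intervals; filled points passed an adjusted p below 0.01. Etv4 and Etv5 lie below 0 with filled points in all 6 comparisons, and Ehf in NaJa-G on day 1 is the highest point, at 2.14.

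Elf3, an epithelial ETS factor of the gut, was higher with encorafenib on day 1 in all 3 lines. NaJa-D held 68.2, 68.3 and 64.0 CPM in DMSO and 84.5, 85.1 and 96.6 with encorafenib, and NaJa-F 38.1, 41.2 and 37.0 against 47.1, 50.7 and 47.2. In NaJa-G, where the control level was lowest, the values were 12.2, 10.4 and 9.96 CPM against 27.2, 28.7 and 27.4. The groups did not overlap in any line, and the log2 fold changes were 0.41 ± 0.07, 0.32 ± 0.08 and 1.36 ± 0.09 (limma, adjusted p = 3.26e-05, 0.00107 and 1.44e-13). On day 5 the gene was called in NaJa-G only, with 10.0 and 14.3 CPM in DMSO and 17.1, 16.9 and 17.6 with encorafenib (0.51 ± 0.11, limma adjusted p = 0.000172). That call was lost without DMSO replicate 1 (0.26, adjusted p = 0.0395) and in a fit of the compared groups alone (0.49, adjusted p = 0.0177). NaJa-D held 57.4, 62.1 and 58.2 against 64.7, 54.6 and 59.2 CPM on day 5, and NaJa-F 34.5, 36.3 and 34.7 against 38.1 and 37.8. Without the library with conflicting labels the NaJa-D day 1 value was 0.35 (adjusted p = 0.00202). Over the fits that left out 1 library it ran from 0.31 to 0.44 and stayed called. The antisense gene Gm26642 shares 7.31% of the exon bases of Elf3, and the sources used here do not say whether counting used strand; Gm26642 itself held at most 2.55 CPM in any library and passed in none of the 6 comparisons.

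Ehf, the other epithelial member, changed most in NaJa-G. There it held 15, 15.3 and 13.3 CPM in DMSO on day 1 and 62.8, 63.1 and 66.6 with encorafenib, which brought it to the level of the other lines, and on day 5 20.3 and 19.7 against 30.0, 29.2 and 31.7. The log2 fold change was 2.14 ± 0.07 on day 1, a 4.41-fold higher level, and 0.60 ± 0.08 on day 5 (limma, adjusted p = 1.13e-20 and 1.39e-07). NaJa-F rose from 50.1, 48.6 and 47.2 CPM to 65, 66.5 and 63.5 on day 1 (0.42 ± 0.06, limma adjusted p = 2.47e-06). On day 5 its values were 57.0, 53.6 and 55.8 against 74.0 and 59.9 CPM (0.26 ± 0.07, limma adjusted p = 0.00403), and this call was lost without encorafenib replicate 1 (0.10, adjusted p = 0.356), DMSO replicate 2 (0.23, 0.0288) or DMSO replicate 3 (0.25, 0.0142). NaJa-D did not pass on either day: DMSO libraries held 68.2, 67.4 and 60.4 CPM on day 1 and 74.8, 70.6 and 75.5 on day 5, and encorafenib libraries 68.9, 68.3 and 68.6 and 70.6, 64.3 and 62.8 (0.07 ± 0.06 and -0.16 ± 0.06). The day 1 value was -0.01 without the library with conflicting labels.

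The summed level of the 12 epithelial markers was higher with encorafenib in every line on both days, also where Elf3 and Ehf were not called. It ran from 8340 to 9005 CPM in NaJa-D DMSO on day 1 and from 10436 to 13252 with encorafenib, from 6070 to 6738 and 8515 to 9076 in NaJa-F, and from 3457 to 4270 and 5423 to 5577 in NaJa-G. On day 5 the sums were 8390 to 9222 and 10808 to 11833 CPM in NaJa-D, 5608 to 5698 and 6677 to 7084 in NaJa-F and 2705 to 3228 and 3488 to 3711 in NaJa-G. This sum too follows its most abundant genes, and not all of the 12 markers moved with it. Of the 12 markers, Krt8, Krt19 and Cldn4 were called higher in all 3 lines on day 1 (12.2% of all genes). On day 5 Cldn4 was higher (6.67%) and Krt20 and Vil1 lower (4.28%) in all 3. Their part in the Elf3 and Ehf values was not tested.

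Ets2, a MAP kinase-responsive activator and an abundant member, was higher with encorafenib in 5 of 6 comparisons. NaJa-D held 329, 321 and 305 CPM in DMSO against 387, 374 and 444 on day 1, and 360, 350 and 365 against 442, 417 and 411 on day 5. NaJa-F held 339, 350 and 306 against 434, 451 and 438 on day 1, and 340, 341 and 339 against 414 and 426 on day 5. NaJa-G held 189, 164 and 159 against 334, 325 and 329 CPM on day 1, the widest gap, but 239 and 266 against 256, 246 and 239 on day 5, where the groups overlapped. The log2 fold changes were 0.34 ± 0.06 and 0.24 ± 0.06 for NaJa-D, 0.41 ± 0.06 and 0.30 ± 0.07 for NaJa-F, then 0.95 ± 0.06 and -0.03 ± 0.07 for NaJa-G (limma, adjusted p from 4.43e-14 to 0.00247 for those called). The day 5 calls were the weakest: that of NaJa-D was lost without DMSO replicate 2 (0.22, adjusted p = 0.0132) or encorafenib replicate 1 (0.21, 0.0201), and that of NaJa-F without encorafenib replicate 1 (0.31, 0.0126) or 2 (0.27, 0.0333). In NaJa-D on day 1 the value was 0.28 (adjusted p = 0.00387) without the library with conflicting labels, and the call was lost in a fit of the compared groups alone (0.31, adjusted p = 0.0231). Over the fits that left out 1 library this value ran from 0.23 to 0.38 and stayed called.

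Ets1, the paralogue of Ets2, passed in none of the 6 comparisons. Its log2 fold changes lay between -0.05 and 0.13, and their 95% intervals between -0.19 and 0.26. Its libraries ran from 61.7 to 85.7 CPM in NaJa-D and from 96.4 to 122 CPM in NaJa-F and NaJa-G.

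Elk3, a ternary complex factor that represses its targets until it is phosphorylated, was lower with encorafenib on day 5 in all 3 lines and in none on day 1. On day 5 NaJa-D held 384, 409 and 398 CPM in DMSO against 345, 329 and 344 with encorafenib. NaJa-F held 266, 271 and 269 against 232 and 223, and NaJa-G 315 and 317 against 221, 225 and 221. All drug libraries lay below their controls, with log2 fold changes of -0.23 ± 0.05, -0.24 ± 0.05 and -0.51 ± 0.05 (limma, adjusted p = 0.000298, 0.000865 and 2.61e-09). On day 1 NaJa-D held 316, 338 and 334 CPM in DMSO against 290, 299 and 333, NaJa-F 251, 256 and 241 against 252, 254 and 245, and NaJa-G 274, 248 and 246 against 271, 262 and 263. These groups overlapped in each line, and the log2 fold changes were -0.10 ± 0.05, 0.00 ± 0.05 and 0.05 ± 0.05. The NaJa-F call was lost without encorafenib replicate 2 (-0.23, adjusted p = 0.0130), and NaJa-D on day 1 passed without encorafenib replicate 3 (-0.19, adjusted p = 0.000704). Cdk17, on the opposite strand, shares 6.95% of the exon bases of Elk3, so reads there could be counted for either gene, and how many was not measured. Cdk17 did not pass on day 5 in any line, at 0.12, -0.01 and 0.03, and on day 1 it was higher in NaJa-D (0.22, limma adjusted p = 0.000575).

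Etv6, a repressor of the family, was higher on day 1 in NaJa-F and NaJa-G. NaJa-F held 68.8, 67.4 and 63.5 CPM in DMSO and 82.2, 78.3 and 82.1 with encorafenib, and NaJa-G 86.9, 79.9 and 80.1 and 101, 96.0 and 99.2. The log2 fold changes were 0.28 ± 0.05 and 0.26 ± 0.05 (limma, adjusted p = 8.03e-05 and 6.08e-05). In NaJa-D on day 1 the values were 81.5, 75.9 and 74.2 against 78.9, 77.4 and 86.3 CPM (0.07 ± 0.05). On day 5 NaJa-D ran from 78.6 to 89.8 CPM in DMSO and from 79.6 to 88.0 with encorafenib, NaJa-F from 76.2 to 79.5 and at 78.3 in both drug libraries, and NaJa-G from 83.8 to 89.3 and from 96.0 to 98.1. The log2 fold changes were 0.01, 0.01 and 0.17, none of which passed (limma, adjusted p = 0.878, 0.903 and 0.0156).

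**Figure D3:**
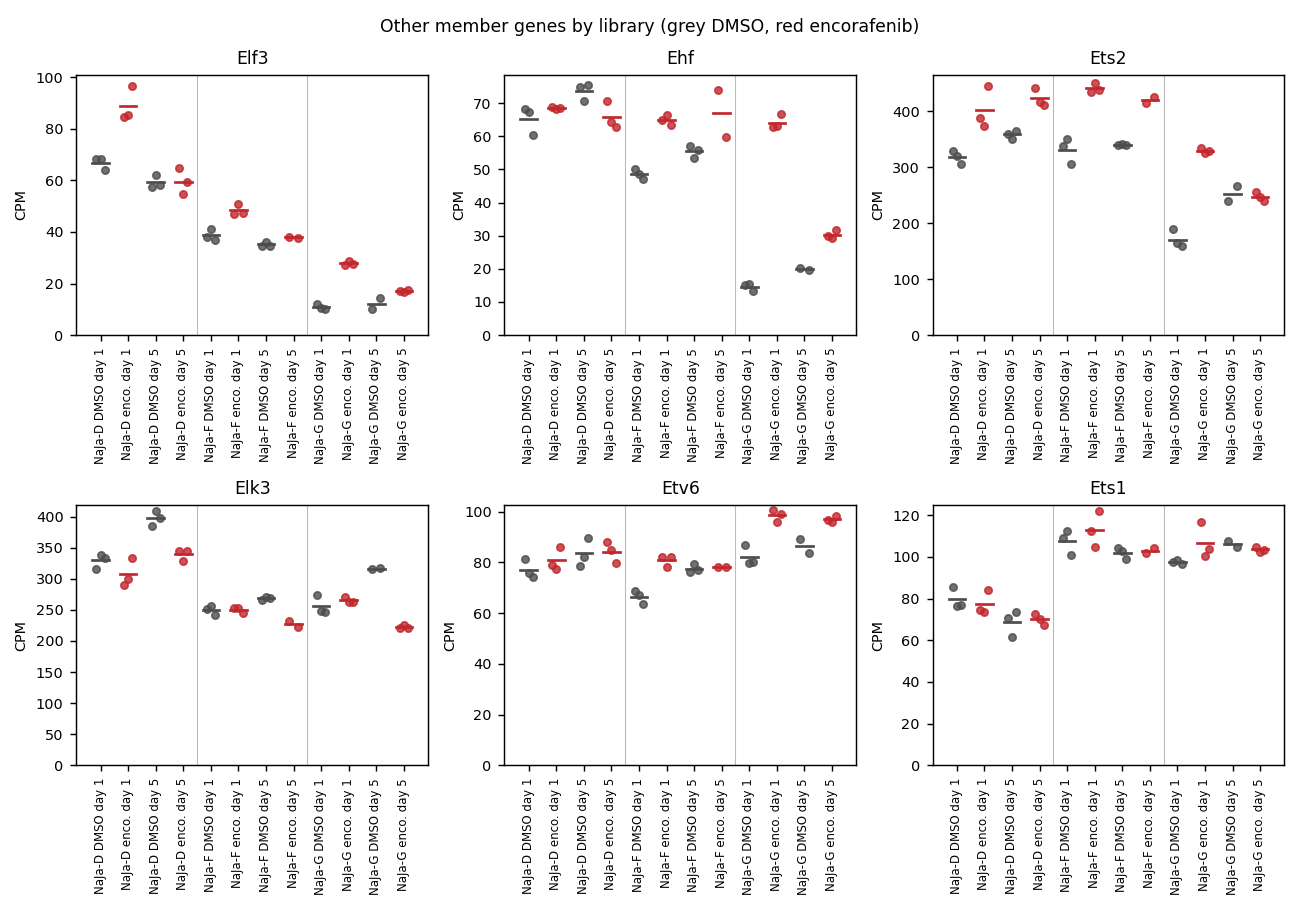
CPM of Elf3, Ehf, Ets2, Elk3, Etv6 and Ets1 in each library, by line, treatment and day; points are libraries, short lines group means, and each axis starts at 0. In NaJa-G the 3 encorafenib libraries of day 1 hold 62.8 to 66.6 CPM of Ehf, above the 13.3 to 15.3 CPM of their controls.

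The response itself differed between lines, by the test of the difference of the log2 fold changes. On day 1 the Etv4 response of NaJa-G minus that of NaJa-D was -2.44 ± 0.11, and minus that of NaJa-F -2.64 ± 0.11 (limma, adjusted p = 7.03e-16 and 2.62e-16). Etv5 differed likewise, by -0.82 ± 0.13 and -1.34 ± 0.11. In the opposite direction Ehf differed by 2.07 ± 0.09 and 1.72 ± 0.09, Elf3 by 0.95 ± 0.12 and 1.04 ± 0.12 and Ets2 by 0.62 ± 0.09 and 0.54 ± 0.09. These 5 of 9 members passed in each of these comparisons, as did 36.4% of all genes against NaJa-D and 33.5% against NaJa-F. Etv1 did not pass, at -1.36 ± 0.76 and -1.01 ± 0.71. Without the library with conflicting labels the differences from NaJa-D were -2.34 for Etv4, -0.73 for Etv5, 2.18 for Ehf, 1.03 for Elf3 and 0.70 for Ets2, all still called, and Etv6 was added (0.28, adjusted p = 0.00912). NaJa-F and NaJa-D, by contrast, differed on day 1 in Etv5 (0.52 ± 0.13) and Ehf (0.35 ± 0.09), 2 of 9 members against 8.79% of all genes, and of the 12 fits that left out 1 library, 7 lost the Etv5 call (0.38 to 0.64 over all fits) and 9 lost that of Ehf (0.33 to 0.44). Both held without the library with conflicting labels (0.60 and 0.44). The comparisons of NaJa-G with NaJa-D and with NaJa-F share the NaJa-G libraries.

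On day 5 the line difference in Etv4 was smaller but present, -0.74 ± 0.10 for NaJa-G against NaJa-D and -1.27 ± 0.10 against NaJa-F, and NaJa-F stood 0.54 ± 0.10 above NaJa-D (limma, adjusted p = 1.08e-06, 1.05e-10 and 0.000243). Called members numbered 5 for NaJa-G against NaJa-D (21.9% of all genes), 4 against NaJa-F (24.2%) and 2 for NaJa-F against NaJa-D (8.85%). Against NaJa-F the 4 were Etv4, Etv5, Ets2 and Elk3, and dropping any 1 of the 10 libraries left 2 or 3. Of these 10 fits 8 lost Ets2 (-0.41 to -0.26 over all fits) and 6 lost Elk3 (-0.30 to -0.25), and both were lost without NaJa-F DMSO replicate 1, without NaJa-G encorafenib replicate 3 and with DESeq2's size factors as scaling. Ehf (0.77 ± 0.10) and Elf3 (0.50 ± 0.13) remained higher in the NaJa-G response than in that of NaJa-D. The Elf3 call was lost without NaJa-G DMSO replicate 1 (0.26, adjusted p = 0.110), NaJa-G encorafenib replicate 3 (0.48, 0.0104) or NaJa-D encorafenib replicate 2 (0.44, 0.0117).

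Between days, the response of NaJa-G changed most. From day 1 to day 5 its Etv4 response became less negative by 1.70 ± 0.11 and its Etv5 response by 0.56 ± 0.11, and the responses of Ehf, Ets2, Elf3 and Elk3 fell by 1.54, 0.98, 0.85 and 0.56 on the log2 scale (limma, adjusted p from 1.19e-12 to 0.00022). These are 6 of 9 members, against 31.7% of all genes. In NaJa-D only Elf3 passed (-0.40 ± 0.10, limma adjusted p = 0.00886, against 7.29% of all genes), and 11 of the 12 fits that left out 1 library lost the call (-0.46 to -0.32), among them the fit without the library with conflicting labels (-0.36, adjusted p = 0.0464). In NaJa-F no member passed (0 of 9 with limma, against 5.88% of all genes); with DESeq2 1 did, Etv4.

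In DMSO the lines already differed in their ETS genes. The 6 NaJa-D control libraries held a median of 26.4 CPM of Etv5 (25.1 to 29.1), the 6 of NaJa-F 36.2 (30.3 to 41.7) and the 5 of NaJa-G 82.0 (68.3 to 92.5). No range overlapped another, and Etv5 exceeded the NaJa-D level by 1.58 ± 0.05 in NaJa-G and by 0.43 ± 0.05 in NaJa-F (limma, adjusted p = 7.40e-21 and 2.90e-08). Etv1 followed the same order, at a median of 0.238, 0.588 and 1.88 CPM, with a log2 difference of 3.20 ± 0.27 between NaJa-G and NaJa-D. For Etv4 the lines lay close together: its medians were 86.4, 87.8 and 95.8 CPM and its differences 0.19 ± 0.05 (NaJa-G against NaJa-D) and 0.02 ± 0.04 (NaJa-F against NaJa-D). The epithelial members ran in the opposite order. Elf3 had medians of 63.1 CPM in NaJa-D (57.4 to 68.3), 36.6 in NaJa-F (34.5 to 41.2) and 10.4 in NaJa-G (9.96 to 14.3), and Ehf 69.4 (60.4 to 75.5), 51.8 (47.2 to 57.0) and 15.3 (13.3 to 20.3). NaJa-G lay below NaJa-D by -2.45 ± 0.07 for Elf3 and -2.02 ± 0.05 for Ehf. The summed epithelial markers were lowest in NaJa-G as given above, and their part in this order was not tested. Ets2 was lower in NaJa-G (-0.71 ± 0.05 against NaJa-D), Ets1 higher in NaJa-F and NaJa-G (0.50 ± 0.05 and 0.46 ± 0.05 against NaJa-D) and Elk3 lower in both (-0.48 ± 0.03 and -0.35 ± 0.04). In all, 7 of 9 members passed for NaJa-F against NaJa-D (61.6% of all genes), and of NaJa-G 8 passed against NaJa-D (67.4%) and 8 against NaJa-F (54.4%). Without the library with conflicting labels the NaJa-D medians were 90.7 CPM for Etv4, 26.3 for Etv5, 0.245 for Etv1, 62.1 for Elf3 and 70.6 for Ehf, so that the Etv4 median of NaJa-D then lay above that of NaJa-F. All 8 differences of NaJa-G from NaJa-D stayed called, with 1.57 for Etv5, 3.01 for Etv1, -2.46 for Elf3 and -2.04 for Ehf. Against NaJa-F, Etv5 was at 0.39, Ets1 at 0.47 and Elk3 at -0.49, still called. Etv1 was lost from this comparison (0.85, adjusted p = 0.0197), as it was without NaJa-F DMSO day 1 replicate 2 (0.97, adjusted p = 0.0124). The Etv4 difference between NaJa-G and NaJa-D was lost without NaJa-G DMSO day 5 replicate 3 (0.15, adjusted p = 0.0124).

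Time in DMSO moved fewer members. Day 5 against day 1, 2 of 9 passed in NaJa-D (29% of all genes), Etv4 at 0.26 ± 0.06 and Elk3 at 0.27 ± 0.05, which held without the library with conflicting labels (0.27), and the Etv4 call was lost without the library with conflicting labels (0.21, adjusted p = 0.0242) or without DMSO day 5 replicate 3 (0.24, adjusted p = 0.0102). In NaJa-F 3 passed (16.7%): Etv1, whose reads went from 12 to 23 per library up to 51 to 58 (1.76 ± 0.37, limma adjusted p = 0.000646), Etv5 (0.30 ± 0.07) and Etv6 (0.22 ± 0.05). Of the 6 fits that left out 1 library, 3 lost the Etv5 call (0.24 to 0.33 over all fits) and 4 that of Etv6 (0.18 to 0.25). In NaJa-G 5 passed (34.1%): Ets2 (0.56 ± 0.07), Ehf (0.46 ± 0.08), Etv1 (1.21 ± 0.21), Elk3 (0.31 ± 0.05) and Etv5 (0.25 ± 0.07), the last of which was lost without DMSO day 1 replicate 2 (0.22, adjusted p = 0.0245) or replicate 3 (0.20, 0.0350) or DMSO day 5 replicate 3 (0.17, 0.115). In a fit of the compared groups alone Ets2 stayed called, and Etv1 (adjusted p = 0.0109), Ehf (0.0145), Elk3 (0.0208) and Etv5 (0.0809) were lost.

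Ordered by group mean, Etv5 separated almost completely: the 6 DMSO groups came first, from 87.6 CPM in NaJa-G on day 5 to 25.6 in NaJa-D on day 5, then the drug groups from 19.1 CPM in NaJa-G on day 5 to 7.48 in NaJa-D on day 1, and 1 of 11 neighbouring pairs had overlapping ranges. For Etv4 the DMSO groups were also the first 6, and 5 of 11 neighbouring pairs overlapped. Etv1 spanned 80.5-fold between its highest and lowest group means, 3.28 and 0.0408 CPM, but 8 of 11 pairs overlapped. Etv6 and Ets1 spanned 1.48-fold and 1.65-fold, Elk3 1.79-fold and Ets2 2.58-fold, with 7 to 9 of 11 pairs overlapping.

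To compare levels between genes, CPM was divided by the summed exon length in kilobases. On this scale Elk3 (48.9 to 87.3 CPM per kilobase over the group means) and Ets2 (29.5 to 76.3) had the highest ranges, though Etv4 (31.2) lay above Ets2 (29.5) in NaJa-G DMSO on day 1, and Etv1 (0.00307 to 0.247) the least. Etv4 ranged from 2.51 to 31.7, Elf3 from 4.89 to 40.0, Etv5 from 1.82 to 21.4 and Ehf from 2.60 to 13.2. The other 8 ETS genes of the table, Erf, Etv3, Elk1, Elk4, Gabpa, Elf1, Elf2 and Elf4, lay between 3.19 and 25.9 CPM per kilobase. Per length, Etv4 and Etv5 made up 10.7% ± 0.331 (SD, n = 3) of the summed ETS level in NaJa-D DMSO on day 1 and 4.29% ± 0.517 with encorafenib. The shares were 13% ± 0.591 and 5.93% ± 0.319 for NaJa-F and 19.4% ± 0.498 and 1.90% ± 0.0427 for NaJa-G on that day. In NaJa-G on day 5 the share was 17.8% ± 0.647 (n = 2) in DMSO and 5.43% ± 0.234 (n = 3) with encorafenib. The drug groups of a line lay wholly below the controls. Elf3 and Ehf together went from 2.95% ± 0.139 to 8.86% ± 0.303 in NaJa-G on day 1 and from 14.0% ± 0.304 to 17.5% ± 0.0911 in NaJa-D. These shares are descriptions, without a test.

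**Figure D4:**
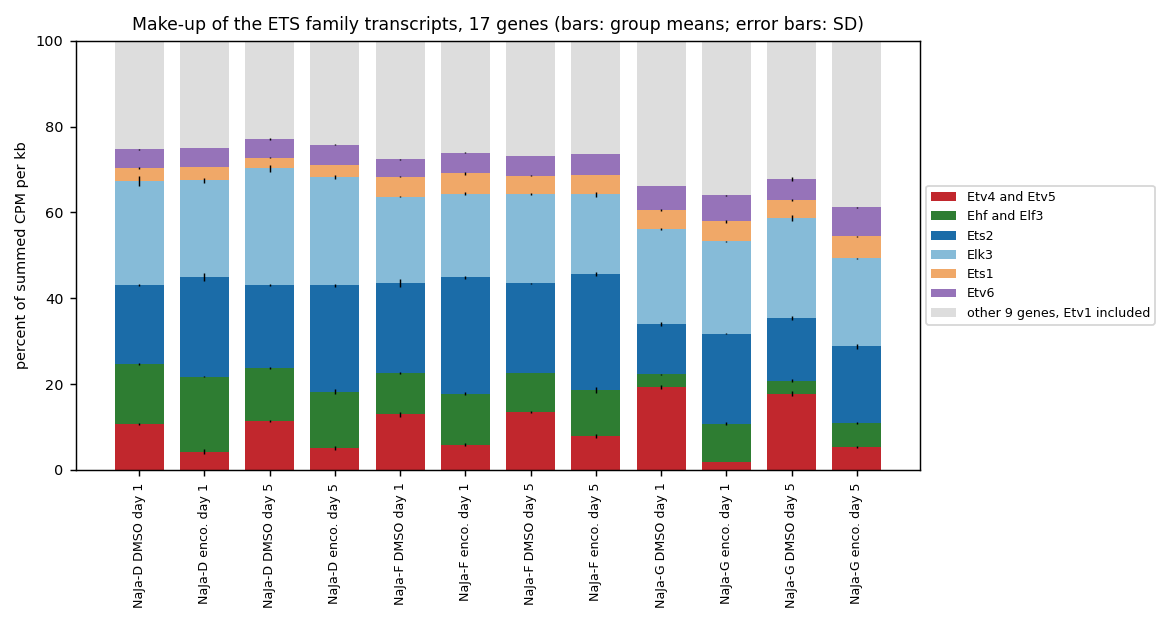
Share of each ETS gene or gene pair in the summed CPM per kilobase of 17 ETS family genes, as group means with SD (n = 2 or 3), by line, treatment and day. The segment of Etv4 and Etv5 goes from 19.4% to 1.90% in NaJa-G on day 1, while Ets2 goes from 11.6% to 21.0%.

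Of the other 8 ETS family genes, none was called one way in all 3 lines on the same day, against 12.2% of all genes higher and 7.9% lower on day 1 and 6.67% and 4.28% on day 5. With so few genes the absence says little. Those that passed numbered 3 in NaJa-D on day 1 (44.9% of all genes) and 1 on day 5 (33%), 1 and 1 in NaJa-F (29.5% and 18.2%) and 4 and 4 in NaJa-G (64% and 53.2%). Elf1 was higher in NaJa-F on day 1 (0.32) and in NaJa-G on both days (0.99 and 0.49), Elf4 in NaJa-D and NaJa-G on day 1 (0.31 and 0.55) and Elk4 in NaJa-D on day 1 (0.47). Etv3 was higher in NaJa-G on day 1 (0.53) and lower on day 5 (-0.27), and Elk1 higher in NaJa-D on day 5 and NaJa-G on day 1 (0.23 and 0.47) but lower in NaJa-F on day 5 (-0.31). Gabpa was lower in NaJa-D on day 1 (-0.30) and NaJa-G on day 5 (-0.21), and Erf, a repressor that ERK exports from the nucleus, in NaJa-G on day 5 (-0.39). Elf2 passed nowhere, with log2 fold changes between -0.06 and 0.01.

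The genes around these factors were read from lists of ERK outputs, of ETS regulators and of the cascade. Of 14 ERK outputs, 7 were lower in all 3 lines on day 1 and 5 on day 5, as were 7.9% and 4.28% of all genes. Fosl1, an AP-1 subunit, and Spry4, a feedback inhibitor of receptor signalling, had the widest changes: on day 1, in the order of the lines, Spry4 was at -1.68 ± 0.16, -1.64 ± 0.14 and -3.64 ± 0.17 and Fosl1 at -0.87 ± 0.09, -1.22 ± 0.09 and -3.15 ± 0.10. Spry2, Spred1 and Spred2 were lower in all 6 comparisons and the phosphatases Dusp5 and Dusp6 in all 3 lines on day 1, whereas Spry1 was higher in all 6, by 0.36 to 0.73. Spry4 and Fosl1, like Etv4, had their largest day 1 changes among the 3 lines in NaJa-G. Both were picked for the width of their change, so this order says nothing about the other ERK outputs. Of 13 ETS regulators, 3 were higher in all 3 lines on day 1, against 12.2% of all genes, and none was called one way in all 3 on day 5. These were Atxn1, a partner of Cic (0.40, 0.28 and 0.88), the ligase scaffold Cul4a (0.27, 0.16 and 0.18) and the substrate receptor Fbxw7 (0.28, 0.24 and 0.29). Atxn1 was lower on day 5 in NaJa-F and NaJa-G (-0.36 and -0.50). Cic itself passed in NaJa-G on day 1 only (0.38), and Cop1 in NaJa-D on day 5, in NaJa-F on day 1 and in NaJa-G on both days (0.20 to 0.26); these last genes were chosen for mention after their values were seen. None of the 6 kinase genes of the cascade was called one way in all 3 lines on either day.

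**Figure D5:**
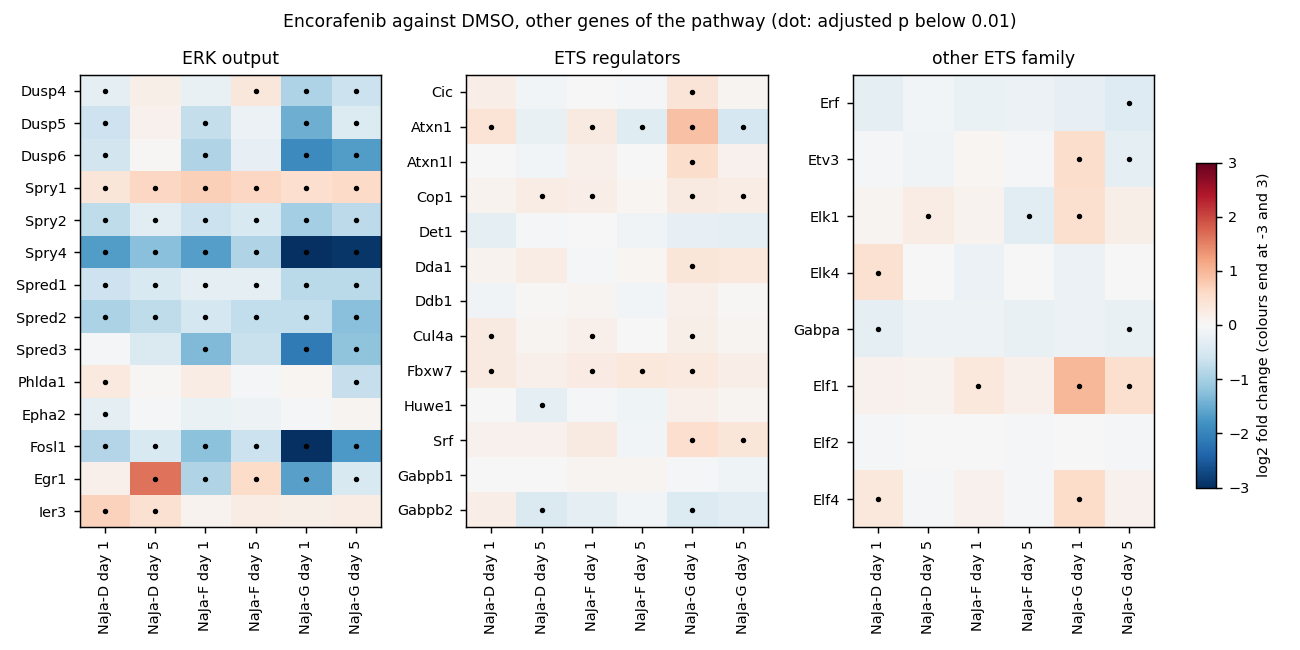
Log2 fold change, encorafenib against DMSO, of 14 ERK output genes, 13 ETS regulators and 8 other ETS family genes in each line and on each day, as colours that end at -3 and 3; dots mark an adjusted p below 0.01. Spry4 and Fosl1 are darkest in NaJa-G on day 1, at -3.64 and -3.15.

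Across the 12 group means of log2 CPM, Etv5 and Etv1 went together (Pearson r = 0.944), Etv4 less closely with Etv5 (0.679) and Etv1 (0.518). Elf3, Ehf and Ets2 formed a second set, with r = 0.906 for Elf3 and Ehf, 0.913 for Ets2 and Ehf and 0.833 for Ets2 and Elf3, and each of them was negatively related to Etv5 (-0.682 to -0.751). Most like Etv4 over all genes were Rhebl1, Espl1 and Spag5 (0.975, 0.975 and 0.973), the latter pair being genes of mitosis. Most like Etv5 were Spp1, Tnfrsf22 and Cacnb2 (0.978, 0.972 and 0.970), and most like Etv1 were Hcfc1, Spred2 and Alkbh8 (0.957, 0.953 and 0.951). For Elf3 they were Patj, Ctse and Ctsh (0.986, 0.984 and 0.982), for Ehf Mall, Entpd3 and Crb3 (0.970, 0.955 and 0.951), and those for Ets2 included Mall and Blnk (0.947 and 0.947). For Elk3 they were Srebf2, Msmo1 and Esx1 (0.960, 0.938 and 0.936), for Ets1 Gnai3, Kcns3 and Pcdhga7 (0.989, 0.982 and 0.980), and those for Etv6 included Atp6v0a1 and Fkbp14 (0.938 and 0.936). The 12 points share lines and treatments, and the coefficients describe these groups only.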

How the data were processed

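RNA of the NaJa lines was sequenced in 34 libraries. Per the labels, the authors trimmed reads with Trimmomatic 0.39 and aligned them with STAR 2.5.2b to GRCm38 (mm10); the counter, its annotation and its use of strand are not given in the sources used here. The deposited values are raw counts per Ensembl gene for 14107 genes, 46007050 to 80121299 per library, the lowest summed row holding 360 counts. Symbols, positions and summed exon lengths came from GENCODE M21 (14064 identifiers matched, 43 did not). From the counts, CPM with TMM scaling and log2 fold changes were computed with limma 3.58.1 (voom weights) and edgeR 4.0.16 in R 4.3.3, with 1 mean for each of the 12 groups. Tests were two-sided, Benjamini-Hochberg adjusted over all genes of a comparison, and called at an adjusted p below 0.01. The 21 comparisons were encorafenib against DMSO by line and day, lines and days in DMSO, and differences of response. Every member, the other ETS genes, ERK output and regulator genes called one way in all 3 lines or with the largest change, and the 3 genes most correlated with each member were named. Some genes that this rule selects are not reported here. The members, lists and rules were chosen with earlier results of these data known. DESeq2 1.42.0, edgeR's quasi-likelihood test, other scalings and thresholds, and fits without each library were tried. The limma steps were tested on simulated data. Replicate numbers did not pair the libraries: deviations from group means of same-numbered libraries correlated at -0.156 to 0.215, above 0.1 in 3 of 16 pairs.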

Additional observations from a re-analysis of the deposited data

Results flagged for a closer look

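The encorafenib response, as the log2 fold change against DMSO, differed between lines or days for the following members by limma's test of the difference itself (adjusted p below 0.01 over all genes). On day 1 the response of NaJa-G differed from that of NaJa-D by -2.44 for Etv4, -0.82 for Etv5, 0.62 for Ets2, 0.95 for Elf3 and 2.07 for Ehf. Against NaJa-F the NaJa-G differences were -2.64 for Etv4, -1.34 for Etv5, 0.54 for Ets2, 1.04 for Elf3 and 1.72 for Ehf. The response of NaJa-F differed from that of NaJa-D on day 1 by 0.52 for Etv5 and 0.35 for Ehf.

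On day 5 the response of NaJa-G differed from that of NaJa-D by -0.74 for Etv4, -0.57 for Etv5, -0.28 for Elk3, 0.50 for Elf3 and 0.77 for Ehf, and from that of NaJa-F by -1.27 for Etv4, -0.62 for Etv5, -0.33 for Ets2 and -0.27 for Elk3. Of the 10 fits that left out 1 library, 8 lost this Ets2 call and 6 this Elk3 call. The NaJa-F response exceeded that of NaJa-D by 0.54 for Etv4 and 0.43 for Ehf. From day 1 to day 5 the NaJa-G response changed by 1.70 for Etv4, 0.56 for Etv5, -0.98 for Ets2, -0.56 for Elk3, -0.85 for Elf3 and -1.54 for Ehf, and the NaJa-D response by -0.40 for Elf3. With 1 line from each of 3 recipient mice, all from the same donor organoid culture, these are differences between lines and not between classes of tumour. Groups of 2 or 3 libraries were too small for a test of single outlying libraries.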

How the results depend on the processing

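Under encorafenib the calls of Etv4 and Etv5 held in all comparisons under every alternative tried and without each library, except that Etv4 in NaJa-F on day 5 (-0.66) was lost where a log2 fold change of 1 in size was required. Of 3006 refits of a member in a comparison, 74 changed sign, 0 of them where the value had been called. With scaling by library size alone, Ets2 in DMSO for NaJa-F against NaJa-D went from -0.01 to 0.11 (adjusted p = 0.00363), and Ets1 in NaJa-D and Elk3 in NaJa-F and NaJa-G under encorafenib on day 1 were at 0.0332, -0.0151 and -0.00374. In fits of the compared groups alone, Elf3 under encorafenib in NaJa-D on day 5 was at -0.00567 and Elk3 in NaJa-G on day 1 at -0.00149. The causes were not tested.

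A log2 fold change of 1 or more in size, added to the threshold, left 2 and 3 called members in NaJa-D (days 1 and 5), 3 and 2 in NaJa-F and 3 in NaJa-G on day 5. It left 1 for NaJa-F against NaJa-D in DMSO, 4 for NaJa-G against each other line, and 0, 1 and 1 over time in DMSO for the lines in that order. Among the differences of response it left 0 for NaJa-F against NaJa-D on either day, 2 and 0 for NaJa-G against NaJa-D, 1 for NaJa-G against NaJa-F on day 5, and 0 in NaJa-D and 2 in NaJa-G between days. Scaling by library size alone gave 5 over time in DMSO in NaJa-D and 5 in NaJa-F, 0 for the NaJa-F against NaJa-D response on day 1, and for the response between days 2 (NaJa-D) and 1 (NaJa-F). An adjusted p below 0.05 gave 5 over time in NaJa-D and 3 for the NaJa-F response between days. Fits of the compared groups alone gave 5 and 1 over time in NaJa-F and NaJa-G, 0 and 3 for the responses of NaJa-F on day 1 and NaJa-G on day 5 against NaJa-D, and 0 and 2 between days in NaJa-D and NaJa-F. DESeq2's size factors as scaling gave 2 for the NaJa-G against NaJa-F response on day 5, without Ets2 and Elk3 (adjusted p = 0.0229 and 0.0168). The NaJa-D response between days had 0 called members with that scaling, edgeR, DESeq2 and the replicate block, and that of NaJa-F had 1 with DESeq2. edgeR's filter on low counts kept all 14107 genes and moved nothing.

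Without 1 library at a time, called members numbered 4 to 5 and 4 to 5 in NaJa-D (days 1 and 5), 6 to 7 and 3 to 6 in NaJa-F, and 7 to 7 and 5 to 6 in NaJa-G. In DMSO they numbered 6 to 7, 7 to 8 and 7 to 8 between lines and 1 to 2, 1 to 3 and 4 to 6 over time by line. For the responses on day 1 they numbered 0 to 3 (NaJa-F against NaJa-D), 5 to 7 (NaJa-G against NaJa-D) and 5 to 5 (NaJa-G against NaJa-F), on day 5 1 to 2, 4 to 5 and 2 to 3, and between days 0 to 1, 0 to 1 and 6 to 6. Uncalled values that changed sign ranged, on day 1, from -0.0130 to 0.0955 for Etv6 and -0.0128 to 0.0940 for Ehf in NaJa-D and -0.0162 to 0.0240 for Elk3 in NaJa-F. On day 5 they ranged from -0.0318 to 0.0656 for Etv6, -0.0410 to 0.0857 for Ets1 and -0.0573 to 0.0661 for Elf3 in NaJa-D, -0.0144 to 0.0168 for Etv6 and -0.0209 to 0.0207 for Ets1 in NaJa-F and -0.107 to 0.0451 for Ets2 in NaJa-G. In DMSO they ranged from -0.0385 to 0.0213 for Ets2 (NaJa-F against NaJa-D) and -0.11 to 0.40 for Elf3 over time in NaJa-G. Fits without 1 library gave 56 sign changes in all. Those of members called in no fit, outside encorafenib against DMSO, are not reported here.

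The libraries share only a replicate number. With a replicate block, Ets2 for the NaJa-G against NaJa-F response on day 5 (-0.32, adjusted p = 0.0144) and Elf3 for the NaJa-D response between days (-0.40, 0.0123) were lost, and Ets1 over time in NaJa-D DMSO (-0.22, 0.00882) and Ehf for the NaJa-G against NaJa-F response on day 5 (0.36, 0.00571) were gained. Library size alone moved the median log2 difference of all genes from 0.02 to 0.14 for NaJa-F against NaJa-D, from 0.01 to 0.13 for NaJa-G against NaJa-D and from 0.01 to 0.18 over time in NaJa-D, and in the last of these the share of calls that were higher from 47.4% to 81.7%. Depth limits Etv1, with 1 to 224 reads per library.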
